A study of Mus musculus with 2 samples.

Results

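The genes examined here belong to the sine oculis homeobox family, whose mouse genes carry names such as Six2, and to the Eya family of their coactivators. They are Six2, Six3, Six4, Six5, Six6, Eya1, Eya2, Eya3 and Eya4, 9 of the 32285 genes in the count files, taken by their symbols and not by any measured value. They were followed in GFP-positive cranial neural crest cells (CNCCs), sorted from heads of E11.5 mouse embryos and profiled by droplet single-cell RNA-seq. In both groups a Wnt1:CRE transgene (Wnt1CRE+), which is active in premigratory crest and dorsal neural tube, switched the r26 reporter, carried as mTmG/mTmG, from membrane tomato to membrane GFP, so cells of the brain are present beside crest derivatives. The control (Tfap2HET) was wt/flox at both Tfap2a and Tfap2b, and therefore lacked 1 working copy of each gene in the CRE lineage. The mutant (Tfap2NCKO) was flox/flox at both genes. Each group was a single library from 2 pooled embryos, so no replicate error exists and no p-value is given. Intervals in brackets are 95% intervals that cover counting error only.

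Sine oculis proteins are homeodomain transcription factors, and EYA proteins are their coactivators, which also carry a phosphatase domain. An EYA protein does not bind DNA by itself and reaches its targets through a sine oculis partner, often together with a DACH protein. In the vertebrate head the network is best known for the cranial sensory placodes and ganglia, the ear, muscle precursors and kidney, and Six2 is in addition a gene of facial and periocular mesenchyme. Six3 and Six6 belong to the branch of the family that patterns forebrain and eye. Within the sine oculis family, Six4 and Six5 form a branch of their own.

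On GRCm38 (GENCODE M21), Six3 (ENSMUSG00000038805, chr17:85613608-85629302, plus strand) and Six2 (ENSMUSG00000024134, chr17:85684277-85688274, minus strand) lie 54974 bases apart and face each other. Six6 (ENSMUSG00000021099, chr12:72939892-72944899) and Six4 (ENSMUSG00000034460, chr12:73099609-73113456) share a stretch of chromosome 12, and Six5 (ENSMUSG00000040841, chr7:19094594-19098549) stands alone on chromosome 7. The 4 Eya genes are on 4 chromosomes: Eya1 (ENSMUSG00000025932, chr1:14168954-14310235), Eya2 (ENSMUSG00000017897, chr2:165595032-165771727), Eya3 (ENSMUSG00000028886, chr4:132638987-132724765) and Eya4 (ENSMUSG00000010461, chr10:23102963-23350786). Six3 overlaps the antisense transcript Six3os1, Six6 overlaps 4930447C04Rik and Eya2 overlaps Gm28163, each on the opposite strand. Whether strand was used in counting is not given in the sources used here, so the counts of these pairs are uncertain.

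Because TFAP2 factors were deleted, the promoter windows of the members were scanned for the letters of TFAP2 consensus sites on both strands, and a few are shown as the sequence context of the genes described below. The RefSeq table (GRCm38.p6) holds 9 windows for 7 members, each from 250 bases before to 50 bases after a start. Eya1 and Eya2 are not among them. The windows of Eya4 overlap each other, as do those of Six4, so 1 site can be counted in more than 1 window. The palindrome GCCNNNGGC was in 1 of the 9 windows, that of Eya4, and in 16.6% of all 32851 windows. The wider palindrome GCCNNNNGGC was in 4 windows of 2 members, Eya4 and Six4, and in 14.8% of all windows. The overlapping windows of each of these genes hold the same sites. The half-palindrome GCCNNNGGG was in 4 windows, of Six2, Six3 and Six4, and in 27.0% of all windows, and GCCNNNNGGG was in 7 windows of 5 members and in 25.6%. The last 2 patterns can overlap each other and the palindromes. The matches below are given 5′ to 3′ on the strand of the gene with the matching letters in capitals. They are matches of letters and were not tested as binding sites.
Eya4, GCCNNNGGC, chr10:23350164-23350193, minus strand: tGCCCGCGGCgcggcgcacgctccggcggc
Eya4, GCCNNNNGGC, chr10:23350064-23350093, minus strand: gggacgcccgGCCACCCGGCgcgcgcgcgc
Eya4, GCCNNNNGGC, chr10:23350019-23350048, minus strand: gctcgctaacGCCGCTCGGCtgctcggact
Six4, GCCNNNNGGC, chr12:73113454-73113483, minus strand: ggccgggccgGCCGGGCGGCcagtgccata
Six2, GCCNNNGGG, chr17:85688455-85688484, minus strand: agcggagctgGCCGAGGGGggcgggggtgg
Six2, GCCNNNGGG, chr17:85688424-85688453, minus strand: agccgcccggGCCGCCGGGgctcgggttac

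After filtering, 5625 control cells (median depth 13478 UMIs) and 5587 mutant cells (median depth 12234 UMIs) remained, and 5 cell barcodes occurred in both libraries. Clustering gave 3 classes, a mesenchyme of 3758 control and 2810 mutant cells, a neural class of 1608 and 2575 cells, and a class with glia of 259 and 202 cells. The 9 members took no part in the clustering. The 3 classes were named from marker genes, and 7 mesenchyme clusters were resolved, of which 5 are called by a region's markers. Another had 3 mandibular markers higher, at a mean log2 ratio of 0.55, but its leading genes Dlx3, Hoxa2 and Emx2 include a Hox gene that goes against that name, so it is called by these genes, a choice made after they were seen, and the last held brain genes and was 72.1% and 70.9% called doublets, so it is not described further. Xist had 103709 UMIs in the control and 6 in the mutant library, and 4 Y-linked genes together had 2 and 11842, so the sex of the embryos and their genotype cannot be told apart. The 3′ counts of Tfap2a and Tfap2b do not separate intact from recombined transcripts and so check nothing about the deletion: in the mesenchyme, Tfap2a was at 19.5 CPM (UMIs per 1000000 UMIs) in the control and 13.3 CPM in the mutant library, and Tfap2b at 56.8 and 47.5 CPM.

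Across the whole mesenchyme, none of the 9 genes with enough UMIs stood 1.5-fold apart between mutant and control. Six2, Six4, Six5, Eya1, Eya2, Eya3 and Eya4 had 100 or more UMIs in 1 or both libraries, and 0 of these 7 were 1.5-fold or more apart, where 3.15% of the 11646 genes with as many UMIs were. The median log2 ratio of mutant over control was -0.04 over the 7 genes and 0.02 over all genes with as many UMIs. Six3, with 7 control and 17 mutant UMIs, and Six6, with 0 and 4, were close to absent from the mesenchyme. The summed level of brain progenitor markers there, 14.0 CPM in the control and 34.4 in the mutant library, was also higher in the mutant, and its part in the Six3 values was not tested.

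Six2, a homeobox gene that keeps progenitors undifferentiated in the kidney, had 3376 UMIs or 57.9 CPM (55.9 to 59.9) in control mesenchyme and 2371 UMIs or 54.1 CPM (52.0 to 56.3) in mutant mesenchyme, a log2 ratio of -0.10 (-0.17 to -0.02). Six4 had 2284 UMIs or 39.2 CPM in the control against 1741 UMIs or 39.7 CPM in the mutant, and its log2 ratio was 0.02 (-0.07 to 0.11). Six5 had 1086 UMIs or 18.6 CPM and 864 UMIs or 19.7 CPM, a log2 ratio of 0.08 (-0.05 to 0.21). The intervals of Six4 and Six5 include 0, and that of Six2 lies just below it. Six5 is the next gene after Dmpk, which was at 8.33 CPM in the control and 8.06 in the mutant mesenchyme.

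Among the coactivators, Eya1 had 2711 UMIs or 46.5 CPM in control and 2099 UMIs or 47.9 CPM in mutant mesenchyme, a log2 ratio of 0.04 (-0.04 to 0.13). Eya3 had 1195 UMIs or 20.5 CPM and 874 UMIs or 19.9 CPM, a log2 ratio of -0.04 (-0.17 to 0.09). Eya2 had 775 UMIs and 524 UMIs, a log2 ratio of -0.15 (-0.31 to 0.01). Of the 7 members with enough UMIs, Eya4 was the furthest from 0. It had 1512 UMIs or 25.9 CPM (24.6 to 27.3) in the control and 913 UMIs or 20.8 CPM (19.5 to 22.2) in the mutant, for a log2 ratio of -0.32 (-0.44 to -0.20). Under 1 fixed set of cluster shares for both libraries, an alternative added after the data were seen, Eya4 kept a log2 ratio of -0.29 while that of Six2 was -0.20.

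The share of mesenchyme cells with a UMI of a member, after every cell was thinned to 5000 UMIs, differed between libraries by less than 2 percentage points for each of the 7 genes. Six2 was detected in 19.6% of control cells and 19.0% of those of the mutant, an Eya1 UMI in 17.2% and 18.2%, and a Six4 UMI in 16.2% and 16.5%. Eya4 was detected in 10.9% of control cells against 9.33% in the mutant, which differ by -1.59 points (-3.09 to -0.08), and was the only one of the 7 whose interval excluded 0. Thinning left out 51 control and 56 mutant mesenchyme cells, and without it the Eya4 shares were 25.9% and 21.7%. In the neural class, which should lack Six2, 1.04% of control and 0.854% of mutant cells held a Six2 UMI, at median depths of 10454.5 and 10378 UMIs against 14568 and 14465.5 in the mesenchyme. Of the Six2 UMIs of that class, 37 of 65 in the control and 67 of 93 in the mutant lay in a cluster with mesenchyme genes that was 40% and 53.7% called doublets.

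**Figure D1:**
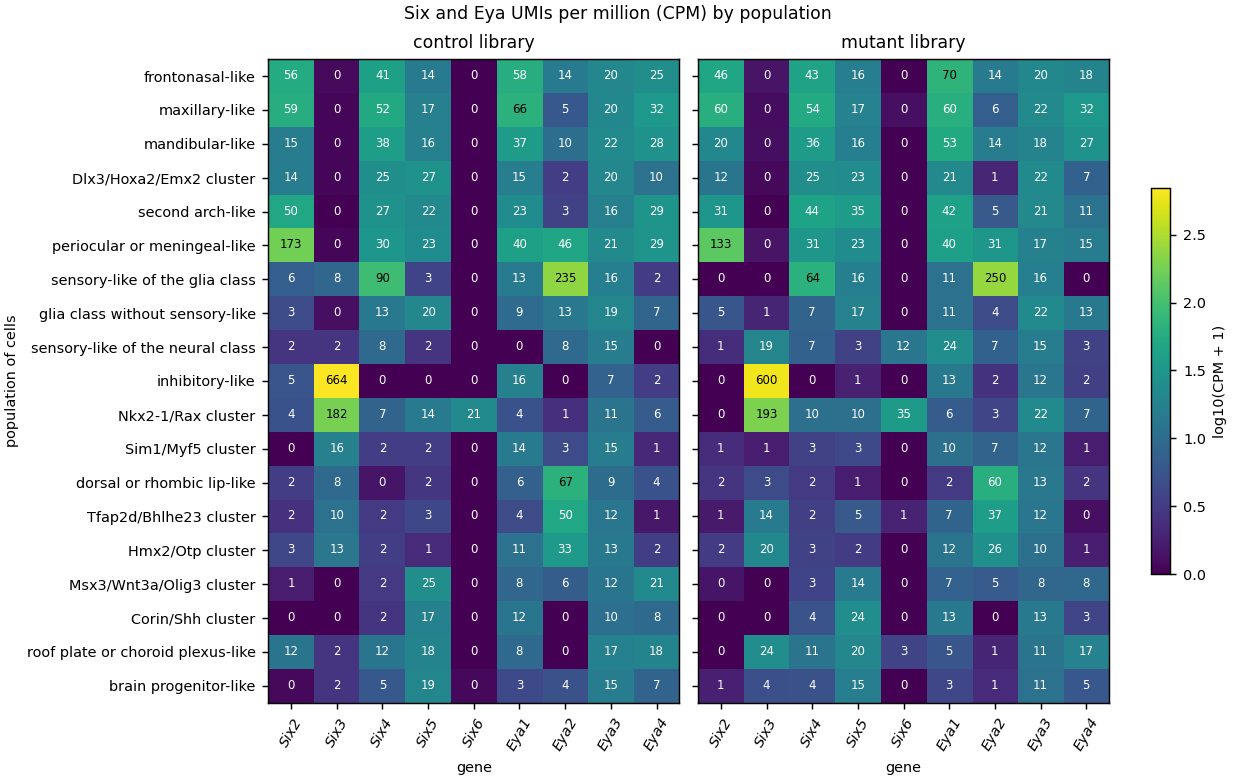
Levels in CPM (numbers in the cells, rounded) of the 9 genes (columns) in 19 populations of cells (rows), for the control library on the left and the mutant library on the right, coloured by log10(CPM + 1). Six2 is highest in periocular or meningeal-like mesenchyme, Six4 and Eya2 in the sensory-like cells of the glia class, and Six3 in inhibitory-like neurons, in both libraries. The mutant level of Six4 in the sensory-like cells rests on 12 UMIs, and its interval (33.0 to 111 CPM) includes the maxillary-like level.

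Within the mesenchyme, Six2 was highest in periocular or meningeal-like cells and lowest in mandibular-like cells and the Dlx3/Hoxa2/Emx2 cluster of the control library. In the periocular or meningeal-like cluster, led by Zic1 and Vtn, it had 1356 UMIs or 173 CPM (164 to 182) in the control and 975 UMIs or 133 CPM (125 to 141) in the mutant library. Next in the control came maxillary-like cells at 58.7 CPM, frontonasal-like cells at 55.7 CPM and second arch-like cells at 50.2 CPM, and the intervals of these 3 overlapped. Lowest were the mandibular-like cells, led by Hand2, at 15.2 CPM and the Dlx3/Hoxa2/Emx2 cluster at 14.5 CPM, whose intervals overlapped as well. In the mutant library the periocular or meningeal-like and maxillary-like clusters again held the 2 highest levels and the Dlx3/Hoxa2/Emx2 cluster the lowest. The 603 control and 577 mutant periocular or meningeal-like cells held 39.2% and 39.3% of all Six2 UMIs of their libraries.

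The log2 ratio of Six2 in periocular or meningeal-like cells was -0.38 (-0.50 to -0.26), and the share of these cells with a Six2 UMI after thinning was 51.6% (47.4 to 55.7) in the control and 42.8% (38.6 to 47.0) in the mutant library. Zic1, a leading gene of the cluster, was at 72.3 CPM in the control and 145 CPM in the mutant library there, so the make-up of the cluster differed between libraries, and its part in the Six2 value was not tested. At a higher clustering resolution the log2 ratio of Six2 was -0.17. In frontonasal-like cells Six2 stood at 55.7 and 45.8 CPM, a log2 ratio of -0.28 (-0.51 to -0.06), and at the higher resolution this was -0.01. In maxillary-like cells it was 58.7 and 59.7 CPM, a log2 ratio of 0.02 (-0.11 to 0.16).

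Within the mesenchyme Eya2 was highest in the same cluster as Six2. The periocular or meningeal-like cells had 361 UMIs or 46.0 CPM (41.4 to 51.0) in the control and 227 UMIs or 30.9 CPM (27.0 to 35.2) in the mutant, with a log2 ratio of -0.57 (-0.82 to -0.33). The value was -0.23 at the higher resolution. Frontonasal-like cells came next at 13.7 CPM in both libraries, then mandibular-like cells at 9.67 and 14.5 CPM and maxillary-like cells at 5.02 and 6.10 CPM. The Dlx3/Hoxa2/Emx2 cluster was lowest with 18 control and 7 mutant UMIs.

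Eya1, whose loss causes ear, kidney and branchial arch defects, was highest in maxillary-like cells of the control library at 66.1 CPM (62.1 to 70.2) and in frontonasal-like cells of the mutant library at 70.5 CPM (63.2 to 78.3). In the control the order went on with frontonasal-like cells at 58.3 CPM, periocular or meningeal-like cells at 40.1 CPM and mandibular-like cells at 36.5 CPM. Second arch-like cells at 23.5 CPM and the Dlx3/Hoxa2/Emx2 cluster at 15.4 CPM were lowest, and the intervals of the periocular or meningeal-like and mandibular-like levels overlapped. Eya1 was higher in the mutant library in mandibular-like cells, 442 UMIs or 36.5 CPM against 368 UMIs or 52.7 CPM, a log2 ratio of 0.53 (0.33 to 0.73). In the Dlx3/Hoxa2/Emx2 cluster the levels were 15.4 and 20.7 CPM, a log2 ratio of 0.43 (0.08 to 0.79).

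Eya4, known for its roles in hearing and the heart, was highest in maxillary-like cells, at 32.2 CPM in the control and 31.5 CPM in the mutant, for a log2 ratio of -0.03 (-0.22 to 0.16). Periocular or meningeal-like cells had 224 control UMIs or 28.6 CPM (24.9 to 32.5) and 112 mutant UMIs or 15.3 CPM (12.6 to 18.4), a log2 ratio of -0.90 (-1.24 to -0.57). That was 1 of 7 members with enough UMIs 1.5-fold or more apart in this cluster, where 3.65% of all genes tested were. Summed frontonasal markers stood at 390 CPM in the control and 216 CPM in the mutant cells of this cluster, maxillary markers at 192 and 88.4 CPM and mural markers at 213 and 268 CPM, and their part in the values of Eya4, Eya2 and Six2 there was not tested. In frontonasal-like cells Eya4 was at 24.7 and 18.4 CPM, a log2 ratio of -0.43 (-0.78 to -0.08) that was 0.031 at the higher resolution. In mandibular-like cells it was at 27.9 and 27.2 CPM.

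Six4, Six5 and Eya3 varied less from region to region. Six4 ranged in the control from 25.2 CPM in the Dlx3/Hoxa2/Emx2 cluster to 52.3 CPM in maxillary-like cells, and in the mutant from 24.7 to 54.2 CPM in the same clusters. Six5 ranged in the control from 14.2 CPM in frontonasal-like cells to 27.4 CPM in the Dlx3/Hoxa2/Emx2 cluster, and in the mutant from 15.5 CPM in frontonasal-like cells to 35.1 CPM in second arch-like cells. Eya3 ranged in the control from 16.3 to 22.2 CPM and in the mutant from 16.8 to 22.2 CPM. Outside the second arch-like cells, no interval of Six4 or Six5 excluded 0 in any of the 5 other clusters. Eya3 had a log2 ratio of -0.34 (-0.66 to -0.02) in mandibular-like cells and of -0.34 in periocular or meningeal-like cells, where the upper end of its interval lay at -4.02e-05. None of the members with enough UMIs was 1.5-fold apart in frontonasal-like, maxillary-like or mandibular-like cells or in the Dlx3/Hoxa2/Emx2 cluster, where 2.25%, 1.18%, 1.72% and 2.16% of all genes tested were.

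The second arch-like cluster was small, with 145 control and 245 mutant cells, and its Hox gene level differed between libraries, Hoxa2 being at 58.7 CPM in the control and 23.2 CPM in the mutant library, so its make-up differed and its part in the values below was not tested. Of all genes tested there 3.5% were 1.5-fold or more apart. Six4 and Eya1 reached 100 UMIs only in the mutant library, where they were higher, so no count of members is read from this cluster. Six4 had 42 control UMIs or 27.4 CPM (19.8 to 37.0) and 107 mutant UMIs or 43.6 CPM (35.7 to 52.7), a log2 ratio of 0.67 (0.14 to 1.22). Eya1 had 36 UMIs or 23.5 CPM (16.5 to 32.5) and 103 UMIs, or 34.3 to 50.9 CPM, a log2 ratio of 0.84 (0.28 to 1.43). Six2 with 77 and 75 UMIs, Six5 with 33 and 86 and Eya4 with 44 and 27 fell short of 100 UMIs, at log2 ratios of -0.72, 0.70 and -1.38.

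**Figure D2:**
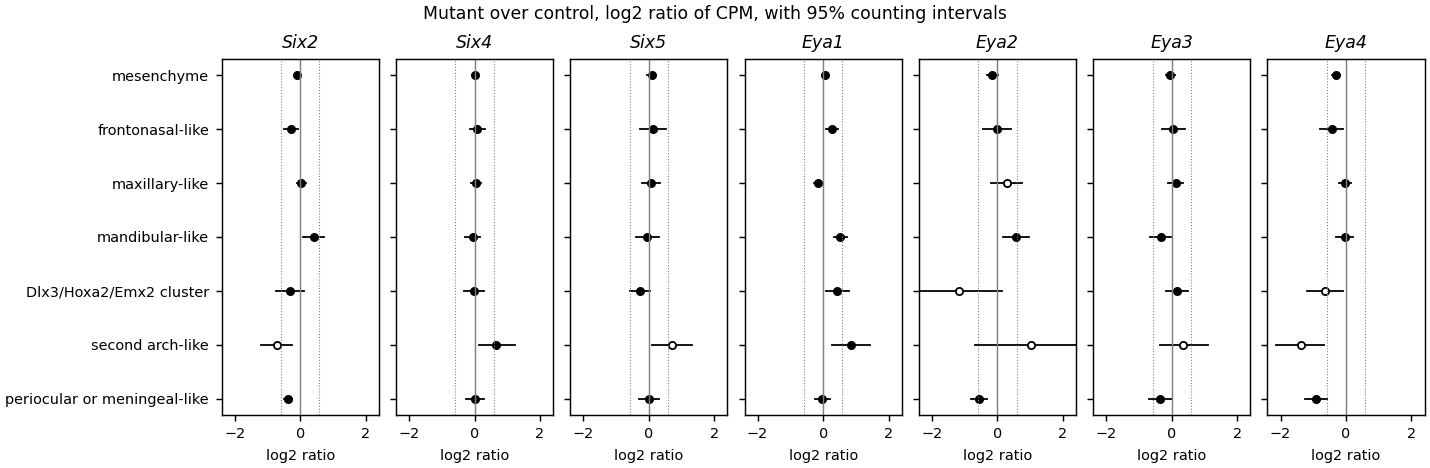
Log2 ratio of mutant over control CPM (x axis) for 7 genes in the whole mesenchyme and 6 of its clusters (y axis), with 95% counting intervals as lines. Filled points have 100 or more UMIs in 1 or both libraries, the dotted lines mark 1.5-fold, and intervals that leave the axis are cut at 2.4. In the whole mesenchyme all 7 points sit between -0.32 and 0.08, while Eya4 in periocular or meningeal-like cells lies beyond 1.5-fold at -0.90. Six4 and Eya1 in second arch-like cells, with 100 UMIs only in the mutant, also lie beyond it, as do points under 100 UMIs such as Eya4 (-1.38), Six2 (-0.72) and Six5 (0.70) there and Eya4 (-0.64) in the Dlx3/Hoxa2/Emx2 cluster.

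**Figure D3:**
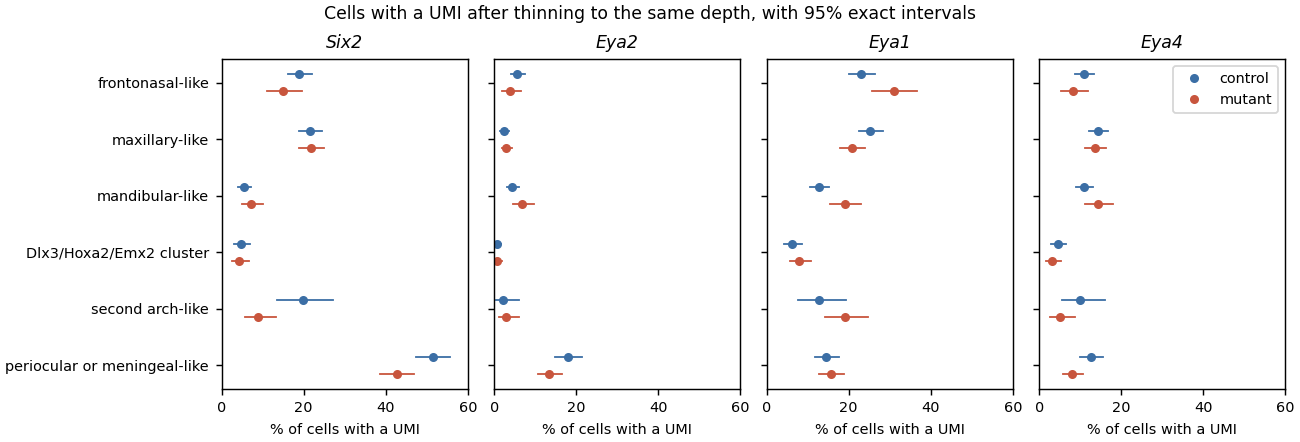
Percentage of cells with a UMI (x axis) of Six2, Eya2, Eya1 and Eya4 after thinning to 5000 UMIs per cell, in 6 mesenchyme clusters (y axis), for control (blue) and mutant (red) with 95% exact intervals. Six2 UMIs were in 51.6% of control and 42.8% of mutant periocular or meningeal-like cells, above each other cluster in both libraries.

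Because EYA proteins act through sine oculis partners, it was asked whether UMIs of both fell in the same cells after thinning. In control mesenchyme, an Eya1 UMI was found in 25.5% (22.3 to 28.8) of 726 cells with a Six2 UMI and in 15.2% (13.9 to 16.5) of 2981 cells without one. In the mutant the shares were 21.8% (18.3 to 25.5) and 17.4% (15.8 to 19.0), whose intervals overlap. For Eya2 they were 10.9% against 4.43% in the control and 10.7% against 4.30% in the mutant. Within the periocular or meningeal-like cluster the Eya2 shares were 19.9% (15.5 to 24.9) against 15.8% (11.7 to 20.7) in the control and 18.2% (13.5 to 23.7) against 9.81% (6.76 to 13.6) in the mutant. In maxillary-like cells the Eya2 shares were 2.11% against 2.47% in the control and 1.90% against 3.17% in the mutant, with overlapping intervals. Within maxillary-like cells an Eya1 UMI was in 34.2% (27.5 to 41.4) of control cells with a Six2 UMI and in 22.8% (19.7 to 26.1) of those without, and in the mutant the shares were 25.9% (19.3 to 33.5) and 19.4% (16.2 to 22.9), whose intervals overlap. For Six4 in control mesenchyme, an Eya1 UMI was in 22.2% of cells with a Six4 UMI and 16.3% of those without, and an Eya2 UMI in 3.83% (2.45 to 5.70) and 6.05% (5.24 to 6.95), whose intervals overlap. In the mutant the Eya1 shares were 23.3% against 17.2% and the Eya2 shares 5.49% against 5.52%. For Eya4 in control mesenchyme the shares were 15.2% with and 9.9% without a Six2 UMI, and 15.3% and 10.1% for Six4. Neither pair of intervals overlapped. Mutant shares were 10.9% and 8.97%, and 10.99% and 9.004%, with overlapping intervals. Control cells of the sensory-like cluster of the glia class with a Six4 UMI numbered 25, and 64% of them held an Eya2 UMI. Of 68 without a Six4 UMI 63.2% did, with overlapping intervals. None of the 10 mutant cells of this cluster held both.

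The sensory-like cluster of the glia class held the highest levels of Six4 and Eya2 in these data. For Six4 in the mutant library, however, the interval given below includes the maxillary-like level of 54.2 CPM (50.3 to 58.3). This cluster was led by Tlx2, Neurod1, Nhlh2 and Prrxl1 and expressed the ganglion factors Isl1 and Pou4f1. In its 94 control cells Eya2 had 422 UMIs or 235 CPM (213 to 258) and Six4 had 161 UMIs or 89.5 CPM (76.2 to 104). Only 10 mutant cells fell in the cluster, with 47 Eya2 UMIs or 250 CPM (184 to 332) and 12 Six4 UMIs or 63.8 CPM (33.0 to 111). The sizes of the cluster are given as values, since its make-up differed: the neuronal gene Stmn2 was at 1076 CPM in the control and 186 CPM in the mutant cells, and UMIs of both Isl1 and Pou4f1 were in 91 of the 94 and 7 of the 10 cells. Markers of the otic or placode list, other sites of Six4 and Eya2, summed to 1 control and 2 mutant UMIs there, with 1 of 3 markers found in each library, and those of skeletal muscle to 5 and 7 UMIs. These sums are 0.556 and 10.6 CPM for the otic or placode list and 2.78 and 37.2 CPM for skeletal muscle. Both were thus higher in the mutant cells, from few UMIs, and their part in the Six4 and Eya2 values was not tested.

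Per cell, the levels of the control and mutant cells of this cluster overlapped. Eya2 ran from 0 to 11 UMIs with a median of 4 in the control cells and from 0 to 11 with a median of 4.5 in the mutant cells. Six4 ran from 0 to 9 UMIs with a median of 1 in the control and from 0 to 2 with a median of 1.5 in the mutant cells. The log2 ratio was 0.09 (-0.38 to 0.53) for Eya2 and -0.49 (-1.47 to 0.36) for Six4, both with intervals that include 0. Both genes reached 100 UMIs only in the control, so no count of members is read from this cluster. Of all genes tested there 18.2% were 1.5-fold or more apart. Of the mutant cells 3 were called doublets, and in the other 7 the Eya2 sum was 34 UMIs. After thinning, which left few UMIs, the log2 ratio of Eya2 was -1.29 (-2.94 to -0.03).

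**Figure D4:**
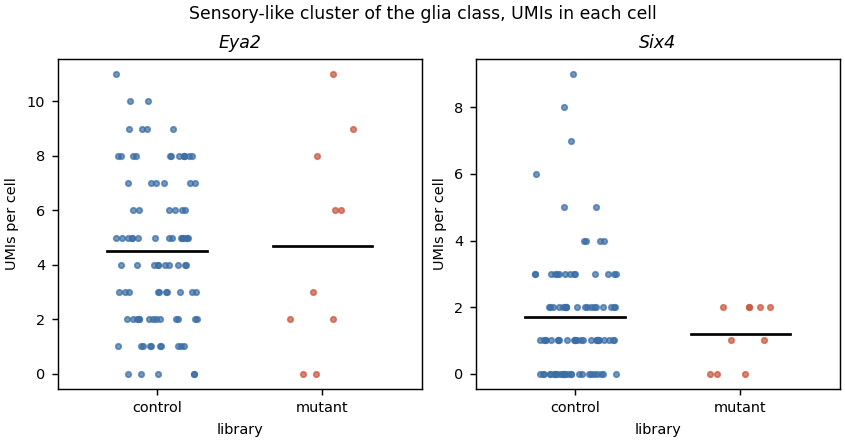
UMIs per cell (y axis) of Eya2 (left) and Six4 (right) in the sensory-like cluster of the glia class, with 1 point for each of 94 control and 10 mutant cells, spread sideways for clarity, and the mean as a black line. The points of both libraries cover the same range for Eya2, from 0 to 11 UMIs.

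Over the glia class as a whole, Eya2 and Six4 were lower in the mutant library. Both reached 100 UMIs only in the control, where they were higher, so no count of members is read from this class, in which 9.61% of all genes tested were 1.5-fold or more apart. Eya2 had 463 UMIs or 92.2 CPM (84.0 to 101) in 259 control cells and 58 UMIs or 17.6 CPM (13.4 to 22.7) in 202 mutant cells, a log2 ratio of -2.39 (-2.81 to -1.99). Six4 had 203 UMIs or 40.4 CPM (35.1 to 46.4) and 34 UMIs or 10.3 CPM (7.14 to 14.4), a log2 ratio of -1.97 (-2.54 to -1.44). The sensory-like cells held 422 of the 463 control and 47 of the 58 mutant Eya2 UMIs. In the remaining cells of the class the sums were small, 41 control and 11 mutant UMIs of Eya2, a log2 ratio of -1.85 (-2.96 to -0.86), and 42 and 22 UMIs of Six4, a log2 ratio of -0.88 (-1.70 to -0.10). A sum over the class does not separate fewer sensory-like cells from less RNA per cell.

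The same cells weigh on the totals over all sorted cells. The log2 ratio of Eya2 over all kept cells was -0.55 (-0.66 to -0.44) and -0.20 (-0.33 to -0.08) without the sensory-like cluster of the glia class. For Six4 the values were -0.33 (-0.41 to -0.24) and -0.27 (-0.36 to -0.18). Cells with a UMI of all of Six4, Eya2 and Isl1 numbered 84 of 5625 in the control and 14 of 5587 in the mutant library, and 17 of 5504 and 0 of 5414 after thinning, where 0 allows a share of up to 0.0554% of cells with UMIs of all 3 genes at this thinned depth. Cells with both Isl1 and Pou4f1 numbered 111 and 17 after thinning.

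A second sensory-like cluster, in the neural class and led by Isl2, Prph, Ret and Avil, held 25 control and 41 mutant cells. Isl1 and Pou4f1 were both detected in 18 control and 11 mutant cells, yet Eya2 had 5 UMIs in each library there, or 8.48 and 6.66 CPM, and Six4 had 5 in each. No control cell of this cluster had an Eya1 or Six6 UMI. The mutant library had 18 Eya1, 14 Six3 and 9 Six6 UMIs in it, and each of these sums comes from few cells.

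In brain-derived cells of the neural class, the forebrain and eye genes Six3 and Six6 were concentrated in few clusters. Six3 had its highest level in inhibitory-like neurons, led by Gata3, Sox14 and Tal1 and expressing Gad1 and Gad2, with 287 UMIs or 664 CPM (590 to 746) in 37 control cells and 739 UMIs or 600 CPM (558 to 645) in 122 mutant cells, a log2 ratio of -0.15 (-0.34 to 0.06). Next came the cluster led by Nkx2-1 and Rax, both forebrain genes, with 129 UMIs or 182 CPM (152 to 216) in 57 control cells and 133 UMIs or 193 CPM (161 to 228) in 64 mutant cells, a log2 ratio of 0.08 (-0.28 to 0.44). Both levels lay above each of the other neural clusters, and within neither did the interval of the ratio exclude 0. Over the whole neural class Six3 was at 27.1 CPM in the control and 36.0 CPM in the mutant, for a log2 ratio of 0.41 (0.26 to 0.56), while inhibitory-like cells held 53.5% of all Six3 UMIs of the control and 66.9% of those of the mutant library. The make-up of the class differed between libraries. Summed blood markers stood at 2260 CPM in the control and 1.29 CPM in the mutant, and roof plate or choroid plexus markers at 41.8 and 296 CPM. Their part in the class values of Six3, and of Eya2 and Eya4 below, was not tested.

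Six6 was found mainly in the Nkx2-1/Rax cluster, with 15 of its 17 control and 24 of its 43 mutant UMIs, or 21.2 CPM (11.8 to 34.9) and 34.8 CPM (22.3 to 51.8) there. These came from 4 control and 5 mutant cells. Six3os1, which overlaps Six3 on the other strand, was at 403 and 340 CPM in inhibitory-like cells and at 135 and 196 CPM in the Nkx2-1/Rax cluster. It thus followed Six3 in both libraries, and the counts of the pair cannot be told apart where strand is not known.

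**Figure D5:**
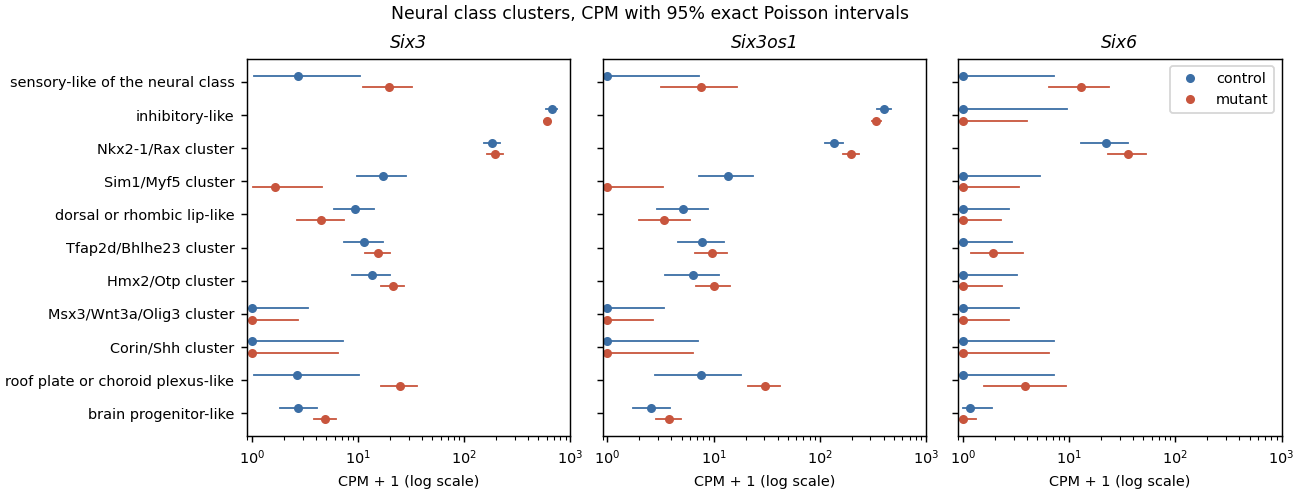
CPM + 1 on a log scale (x axis) of Six3, its antisense neighbour Six3os1 and Six6 in 11 clusters or groups of clusters of the neural class (y axis), for control (blue) and mutant (red), with 95% exact Poisson intervals. Six3 stands at 664 and 600 CPM in inhibitory-like cells and Six6 is highest in the Nkx2-1/Rax cluster at 21.2 and 34.8 CPM.

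Among the Eya genes, Eya2 had its highest neural levels in clusters of brain neurons. It was at 67.2 CPM (56.7 to 79.0) in control and 59.7 CPM (51.2 to 69.3) in mutant dorsal or rhombic lip-like neurons, which were led by Evx1, Atoh1 and Barhl1, with 145 and 174 UMIs and a log2 ratio of -0.17 (-0.50 to 0.16). The Tfap2d/Bhlhe23 cluster held 97 UMIs or 50.3 CPM and 121 UMIs or 37.1 CPM, a log2 ratio of -0.44 (-0.84 to -0.04), and the Hmx2/Otp cluster 56 UMIs or 33.5 CPM and 72 UMIs. In brain progenitor-like cells Eya2 was low, at 4.06 and 1.16 CPM. Over the neural class Eya2 had 363 UMIs or 19.1 CPM and 444 UMIs or 14.7 CPM, a log2 ratio of -0.38 (-0.58 to -0.17).

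Eya4 was the 1 member of 7 with enough UMIs that was 1.5-fold or more apart in the neural class, against 1.94% of all genes tested. It had 134 UMIs or 7.07 CPM (5.92 to 8.37) in the control and 138 UMIs or 4.58 CPM (3.85 to 5.41) in the mutant, for a log2 ratio of -0.63 (-0.98 to -0.27). Within the class its control level was highest in the Msx3/Wnt3a/Olig3 cluster of dorsal progenitor genes, with 33 UMIs or 21.3 CPM against 18 mutant UMIs or 8.25 CPM. In the glia class the difference ran the other way, 28 UMIs or 5.58 CPM in the control and 41 UMIs or 12.4 CPM in the mutant, for a log2 ratio of 1.16 (0.43 to 1.90), at sums under 100 UMIs. Six5 was broad, at 19.2 and 15.3 CPM in brain progenitor-like cells and 24.6 and 13.7 CPM in the Msx3/Wnt3a/Olig3 cluster, but at 5.21 CPM or less in the inhibitory-like, dorsal or rhombic lip-like and Tfap2d/Bhlhe23 clusters. Eya3 lay between 6.94 and 22.2 CPM across the populations plotted, the lowest value resting on 3 UMIs in control inhibitory-like cells.

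Other genes of the sine oculis and EYA network and transcripts beside members, 26 in the files, were followed as 1 list. It held DACH partners, cofactors or corepressors, the EYA phosphatase substrate histone H2A.X, PAX genes and known sine oculis targets or partners. Six3os1 and Dmpk were in it only as transcripts antisense or next to members. In the mesenchyme 18 had enough UMIs, of which 0 were 1.5-fold or more higher and 1 lower in the mutant, where 3.15% of all genes tested were 1.5-fold apart, and their median log2 ratio was -0.04 against 0.02 over all genes. The 1 lower gene was Pax7, a paired-box factor of crest and muscle progenitors, at 20.3 CPM in the control and 10.9 CPM in the mutant, for a log2 ratio of -0.90 (-1.05 to -0.74). Pax7 leads the frontonasal-like cluster, which held 719 of 3758 mesenchyme cells in the control and 299 of 2810 in the mutant, and the part of these shares in its value was not tested. Pax9, at a log2 ratio of -0.58 (-0.69 to -0.46), and Pax3, at -0.43 (-0.51 to -0.35), were also lower but under 1.5-fold. Slc12a2, at 0.35 (0.26 to 0.45), and Osr1, at 0.14 (0.06 to 0.22), were higher. H2afx, which encodes the H2A.X histone, was at 488 and 496 CPM, and the Groucho-type corepressors Tle5, Tle4 and Tle1 had log2 ratios of -0.04, 0.02 and -0.28. In the sensory-like cluster of the glia class 5 had enough UMIs, each only in the control library, so no count is read from them. Of all genes tested in that cluster 18.2% were 1.5-fold or more apart. Dach1, a partner of sine oculis and EYA proteins, was at 111 CPM in the control and 95.7 CPM in the mutant library there. H2afx stood at 240 and 176 CPM, Tle5 at 187 and 165 CPM and Pax3 at 83.4 and 90.4 CPM.

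Genes whose levels followed a member most closely over the 23 clusters with 30 or more cells in each library were found by Pearson's r of log2(CPM + 10), taking the lower of the values in the 2 libraries. Clusters of 1 library share that library, and the values are descriptions. The lists depend on the settings: of the alternative lists, 18 moved and 6 stayed the same. Six2 was followed most closely by Lum, Crym, Cped1, Igf1 and Fap, with r from 0.92 to 0.95, among them genes of fibroblast-like mesenchyme. Six3 was followed by Six3os1 at 0.99 and by Gad2, Gad1, Gm14204 and Slc32a1, the last a transporter of inhibitory neurons, between 0.90 and 0.93. Nfatc4, Tns1, Rarg and Twist1 were among the 5 genes most like Six4, and Igf1, Alx4, Nbl1 and Twist1 among the 5 most like Eya1. Eya4 was followed by Fkbp11, Actn1, Smad6, Gja1 and Eepd1, and Six5 by Mier1, Yap1, Trip6, Smco4 and Ssr1. Eya3 was followed by Arhgef40, Lrp5, Lima1, Gm36988 and Slc43a3, with r from 0.75 to 0.79. For Eya2 the values were lower, with Crabp1 and Ndufa4l2 closest at 0.71, then Pakap, Abtb2 and Ptprg, and in the control library alone, where the sensory-like cluster of the glia class enters, the closest was Pou4f1 at 0.80.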

How the data were processed

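Cells of GFP-sorted E11.5 heads were profiled in 1 control and 1 mutant library. Deposited matrices hold raw UMI counts. The authors made them with Cell Ranger 6.0.0 on mm10 from 10x Chromium 3′ libraries and analysed them with Seurat 4.3.0. The groups follow the genotype labels.

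Here, barcodes were kept at 200 to 7500 genes and at most 10% mitochondrial UMIs. Libraries were integrated with Seurat 5.3.0 (R 4.3.3; 2000 variable genes, 30 dimensions) and clustered at a resolution of 0.05, and each class again in 20 dimensions at 0.3. That resolution and the naming rule were settled after clusters were seen. The members, Tfap2a, Tfap2b, Xist and Y-linked genes took no part. A cluster was named "-like" from marker lists, taking the class whose markers were highest on average, where 3 or more were higher. Doublets were called by Scrublet (scanpy 1.11.5) and kept.

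UMIs were summed per library and population and expressed per 1000000 UMIs (CPM), over 82313680 control and 77251738 mutant UMIs in all. Sums have exact Poisson, log2 ratios exact conditional binomial and shares Clopper-Pearson intervals at 95%. The floor for a count of 0 was 3 counts. Cells are not replicates, so no p-value was computed. A gene was counted as apart at 1.5-fold with 100 UMIs in 1 or both libraries. Alternatives were TMM scaling (edgeR 4.0.16), equal weight per cell, thinning, no doublets, no integration, higher resolution (0.1 and 0.6) and leaving out the 10 cells richest in the gene. The interval was checked on simulated counts. The genes named were the 9 members, the network genes 1.5-fold apart or else the 4 with most UMIs, and the 5 genes most like a member with 200 UMIs. Pax9, Pax3, Slc12a2 and Osr1 in the mesenchyme were named after their values were seen. Members and lists were chosen with earlier results of these data known. One gene in these lists is not reported here.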

Additional observations from a re-analysis of the deposited data

Results flagged for a closer look

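For 3 members, log2 ratios of mutant over control with intervals clear of 0 had opposite signs in different mesenchyme clusters. The difference between clusters was not tested, since each cluster has 1 library per group. For Six2 and Eya1 the opposite signs rest on 1 cluster each, whose value turned sign under an alternative. Six2 was higher in the mutant in mandibular-like cells, at 0.41 (-0.14 without integration), and lower in frontonasal-like cells at -0.28 (-0.0097 at higher resolution), periocular or meningeal-like cells at -0.38 and second arch-like cells at -0.72. Eya1 was higher in mandibular-like cells at 0.53, the Dlx3/Hoxa2/Emx2 cluster at 0.43, frontonasal-like cells at 0.27 and second arch-like cells at 0.84, and lower in maxillary-like cells at -0.15 (0.016 without integration and 0.021 at higher resolution). Eya2 was higher in mandibular-like cells at 0.58 and lower in periocular or meningeal-like cells at -0.57.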

How the results depend on the processing

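No paired analysis was possible because each group is 1 library and the labels give no replicate numbers. With 1 library per group no replicate could be left out, and depth limits Six6, Six3 in mesenchyme and all values in the 10 mutant sensory-like cells. The count of members 1.5-fold apart in the mesenchyme was 0 under each of 8 alternatives. Of 132 alternative values for whole classes, the sensory-like cluster, the shares and that count, 124 stayed within the interval of, or equal to, the value reported. The others were as follows. Fixed region shares gave a log2 ratio of -0.20 for Six2 in the mesenchyme. Thinned cells gave -1.27 for Six4 and -3.16 for Eya2 in the glia class and -1.29 for Eya2 in its sensory-like cells. Leaving out the 10 cells of each library richest in the gene gave -2.63 for Six4 and -5.59 for Eya2 in the glia class, where those cells held 19.7% of control and 91.4% of mutant Eya2 UMIs, and 0.74 for Six3 in the neural class. Without thinning, the Eya4 share of mesenchyme cells differed by -4.22 points. Of 203 alternative values for single regions, 184 stayed within the interval, 15 moved outside it and 4 turned sign, namely Eya4 in frontonasal-like cells at higher resolution (0.031), Eya1 in maxillary-like cells without integration (0.016) and at higher resolution (0.021), and Six2 in mandibular-like cells without integration (-0.14). The cause was not tested. Of the alternative lists of genes most like a member, 18 moved and 6 stayed the same. Of the 5 genes most like Six2, 2 were shared at a pseudocount of 1 and 3 at 100, and for Eya2 and Eya3 0 of 5 were shared with the control library alone. For Eya4 the genes shared with the control library alone were Smad6 and Gja1.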
